A study of Danio rerio with 6 samples.

Results

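Genes of the circadian clock and of the light response were followed in the zebrafish retina with and without its retinal pigment epithelium. Of 9 genes looked up by symbol in the platform's probe annotation, 8 had a probe set, namely clocka, per2, per3, cry4, nr1d2a, bhlhe40, tefa and cry5. The gene nr1d1 had none under its symbol and is not analysed here. The 8 genes were read by 11 probe sets out of 15502 tested, which carry 8793 named genes in all. Every probe set of each gene is given on all 6 arrays.

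The arrays compare 2 groups of wild-type zebrafish embryos of the AB strain at 52 hours post fertilization, with no treatment and no mutation in either. The retina group consisted of 3 pools of dissected retinas. The second group consisted of 3 pools of retinas to which the pigment epithelium (RPE, a dark cell sheet that lines the back of the retina) was still attached. Each pool held 10 tissues and was labelled a biological replicate, and each gave 1 array. The second group is thus retina plus RPE, not RPE alone, so a transcript made only in RPE is diluted by retinal RNA. In such pools fewer cells of a type and less RNA per cell cannot be told apart. The age is labelled, but the sources used here give neither the light schedule nor the clock time of dissection.

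The clock is a feedback loop of transcription. Clock and Bmal proteins bind E-box elements as pairs and switch on period and cryptochrome genes, whose proteins return to repress them. Rev-erb and Ror receptors, PAR bZIP factors such as Tef and the bHLH-Orange repressors form further loops around this core. In zebrafish most tissues hold clocks that light can set directly, and light induces per2, cry1a and the photolyase gene cry5 there. In the vertebrate eye both photoreceptors and RPE are known to run clocks.

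The RPE label was borne out by the 6 measured RPE and melanin markers, which all rose. The visual cycle gene rpe65a rose 12.2-fold and the melanin genes dct and pmelb 6.33-fold and 7.32-fold, while the photoreceptor factor crx was 1.43-fold lower. Array medians lay between 68.2 and 68.9 in retina and between 72.9 and 74.1 with RPE, and the spread of values was narrower with RPE. Lower quartiles were 24.8 to 25.8 against 27.7 to 28.2, and upper quartiles 282 to 292 against 264 to 269. Dim probe sets therefore lay higher with RPE as a whole and bright ones lower. Spiked bacterial poly-A controls read 1.14-fold to 3.47-fold higher with RPE. The part of these shifts in the changes below was not tested, but the plot of changes sets each one beside the 500 probe sets of most similar brightness.

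Markers of other cells moved with the groups as well. Summed intensities of the RPE and melanin list were 497 to 565 in retina and 2697 to 3791 with RPE. All 7 neural crest and pigment cell markers rose (sums of 1281 to 1599 against 2807 to 3037). Most of these sums came from paics, at 904 to 1171 in retina and 1660 to 1877 with RPE. Also called higher were 9 of 10 mesenchyme markers (563 to 599 against 1000 to 1484) and all 5 of vessel endothelium (265 to 305 against 453 to 474). Skin markers rose in 5 of 8 and fell in 1 (356 to 388 against 794 to 908). The largest rises were in krt8, krt18a.1 and ahnak (log2 changes of 1.90, 1.77 and 1.63). The keratin genes krt4 and krt5 were not called (0.22 and -0.09), and epcam fell (-0.28). Rises were called in 4 of 9 muscle markers (667 to 769 against 994 to 1144) and 4 of 7 leukocyte markers (264 to 352 against 407 to 492). They were called in 2 of 5 erythrocyte markers (2838 to 3703 against 3761 to 5642) and 1 of 3 lens markers (183 to 198 against 216 to 246). Inner retinal neuron markers fell in 7 of 14 (14710 to 19398 against 11645 to 13370), and photoreceptor markers rose in 2 and fell in 3 of 12 (10204 to 11893 against 8293 to 9047). The photoreceptor falls included pde6ha and rcvrn2, read by their brightest probe sets. A dimmer probe set of each was called higher, with log2 changes of 0.93 and 0.43. Over all genes by their brightest probe set 19.4% were called higher and 17.0% lower. No marker was listed at 0, but no array held a value below 7.66, so this does not show that a marker was detected. The leukocyte marker ptprc, for example, read 13.3 to 15.8 over the arrays. The part of these cells in the clock results was not tested.

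Of the 11 clock and light probe sets, 5 rose with RPE attached, 0 fell and 6 were not called, read by limma at an adjusted p under 0.05 over all tested probe sets. Those that rose belong to clocka, cry4, per3, per2 and cry5. Across all tested probe sets 19.0% were called higher and 15.6% lower, and 34.5% were called in either direction. The median log2 change of the 11 was 0.27, against 0.045 over all tested probe sets. At an unadjusted p under 0.05, 6 passed as higher and 0 as lower, where 25.8% of all probe sets passed as higher and 19.9% as lower. The groups did not overlap, with the RPE pools higher, in 7 of the 11, against 28.7% of all probe sets, and the reverse was seen in 0 of the 11, against 20.8%. Without retina with RPE replicate 2 or 3 the count of risen probe sets was 3 in each case, and the count over all tested probe sets went from 2938 to 1948 or 1805. Cyclic loess also gave 3, and the fit without moderation of variances 2.

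**Figure D1:**
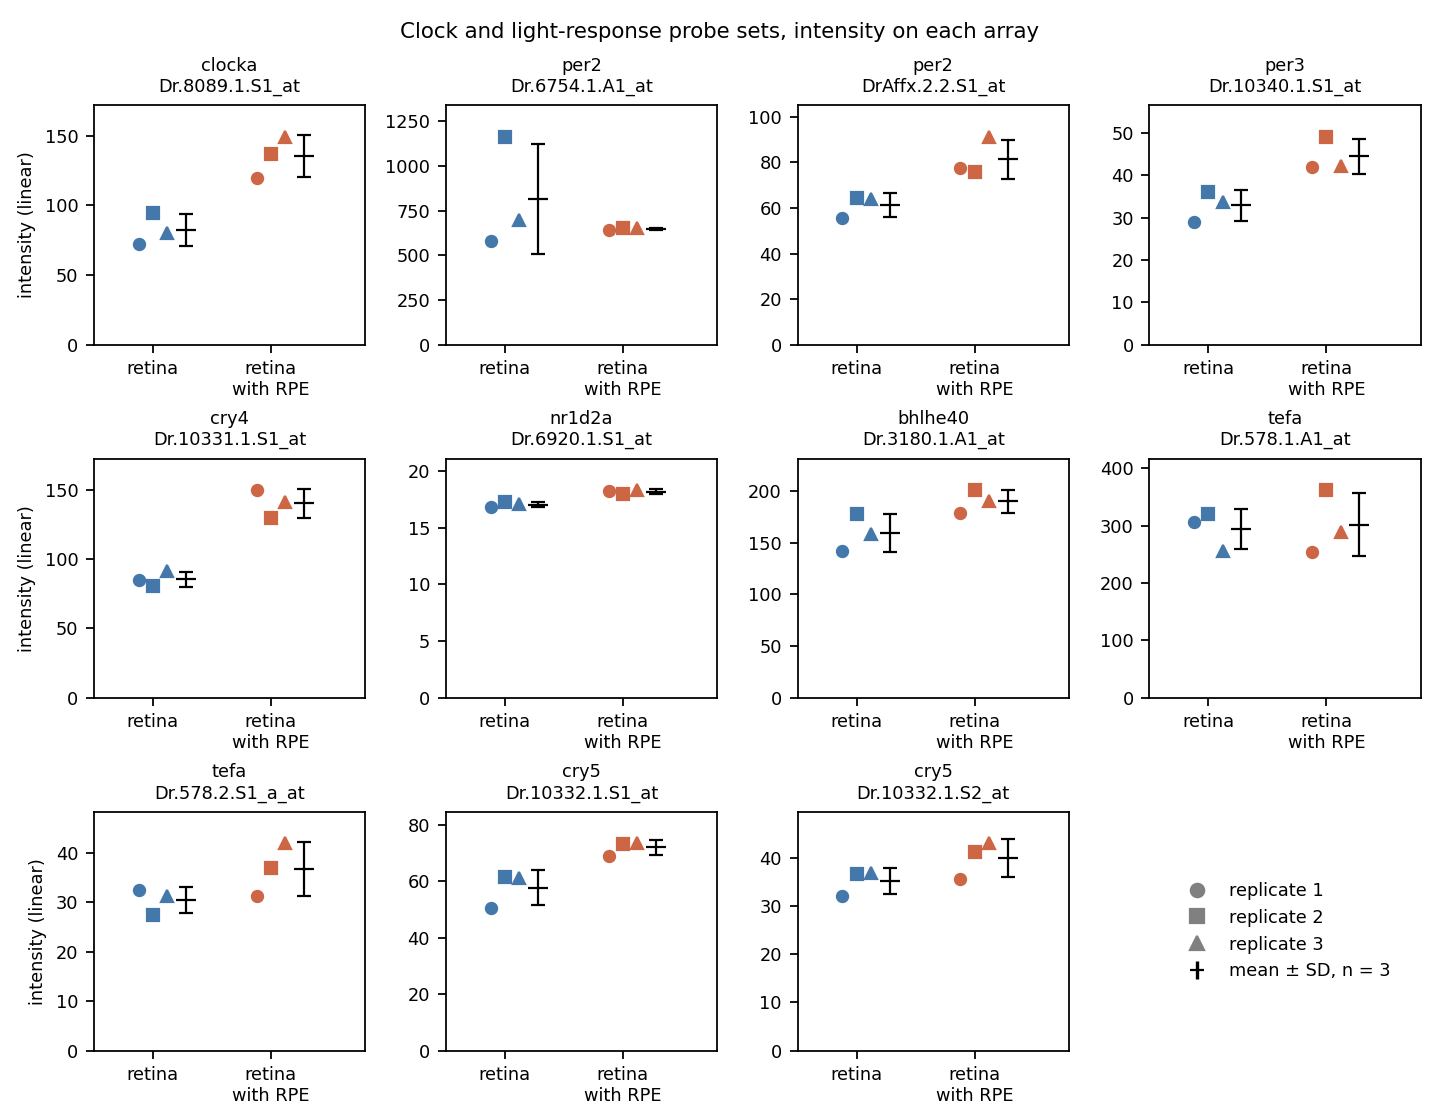
Deposited linear intensity (vertical axes, each starting at 0) of the 11 probe sets on the 3 retina arrays (blue) and the 3 arrays of retina with RPE (orange), with mean ± SD beside them. The groups stand apart in 7 panels, and 1 retina array stands far above the others in the brighter per2 panel.

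**Figure D2:**
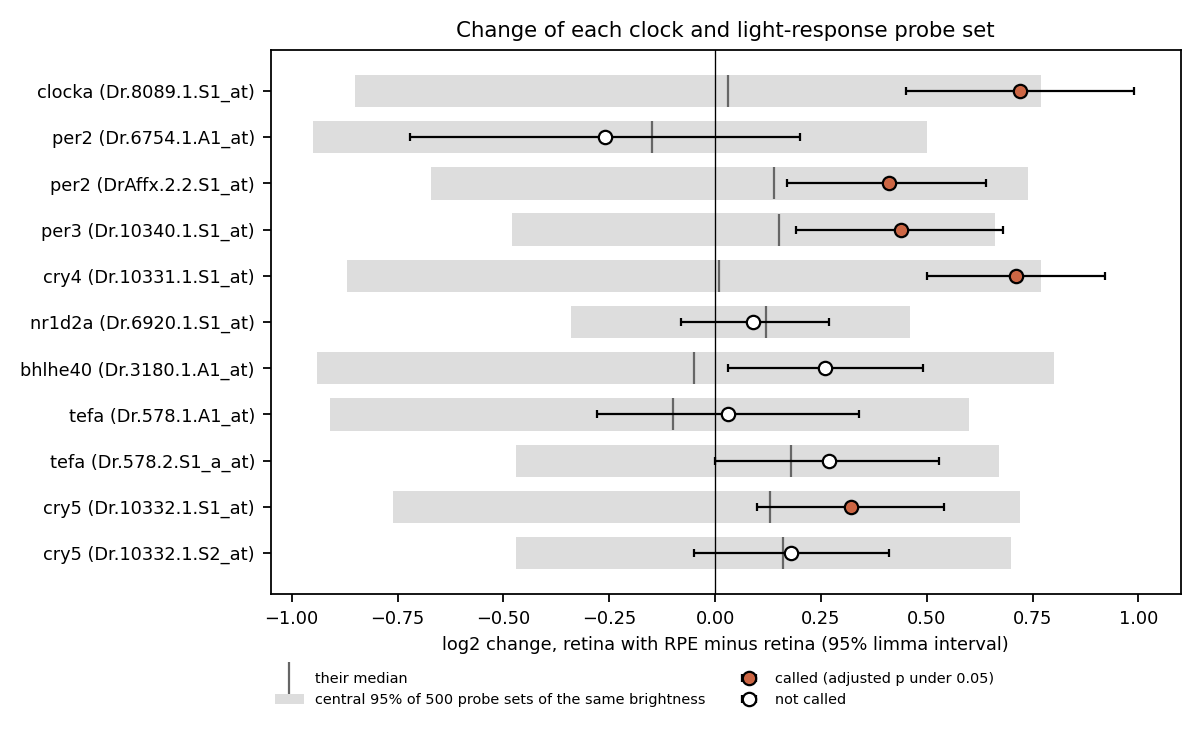
Log2 change of each probe set (horizontal axis, retina with RPE minus retina) with its 95% limma interval, filled where called. Grey bars give the central 95% and ticks the median of the 500 probe sets of most similar brightness; clocka and cry4 lie near the upper end of their bars.

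The activator gene clocka encodes the Clock protein, a bHLH-PAS factor that pairs with Bmal. Its intensity was 72.5, 94.7 and 79.9 in the retina pools and 119, 137 and 149 in the pools with RPE. Every RPE pool lay above every retina pool. The rise was 1.65-fold (95% interval 1.36 to 1.98), a log2 change of 0.72 ± 0.121 (SE; limma adjusted p = 0.00222). Among 500 probe sets of the same brightness 3.0% rose by at least as much, and their median change was 0.03. The call held without each of the 6 arrays in turn and was lost in the fit without moderation (adjusted p = 0.0515, the highest of its alternatives, whose lowest was 0.00081).

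The other activator genes lay in the same direction. Of the 6 measured genes of the Clock and Bmal list 3 rose and 0 fell, where 19.4% of all genes by their brightest probe set were called higher and 17.0% lower. The Clock paralogue gene npas2 rose 1.70-fold, from 77.8 ± 13.7 to 131.9 ± 18.3 (SD, n = 3; limma adjusted p = 0.0034). The second Clock gene, clockb, rose 1.39-fold, from 47.9 ± 8.80 to 66.1 ± 2.77 (limma adjusted p = 0.0148), but was not called once retina with RPE replicate 3 was left out (adjusted p = 0.0612). In each of these genes the groups did not overlap. The partner genes bmal1a, bmal2 and bmal1b were not called, with log2 changes of 0.34, 0.26 and 0.15 (limma adjusted p = 0.0826, 0.0567 and 0.346). A dimmer bmal2 probe set changed by 0.02 (limma adjusted p = 0.905).

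The period genes encode repressors of Clock and Bmal, and per2 is the member induced by light in zebrafish. Its brighter probe set read 581, 1164 and 696 in retina and 643, 650 and 654 with RPE. The RPE pools lay within the range of the retina pools, and retina replicate 2 stood far above the rest. The log2 change was -0.26 ± 0.206 (SE; 95% interval -0.72 to 0.20; limma adjusted p = 0.35). Without retina replicate 2 it was 0.03 (adjusted p = 0.854), so its sign rested on that array.

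The dimmer per2 probe set gave another picture. It read 55.4, 64.4 and 64.1 in retina and 77.4, 75.7 and 91.3 with RPE. All RPE pools were above all retina pools, with a rise of 1.33-fold (1.13 to 1.56; limma adjusted p = 0.0147). Among 500 probe sets of the brightness of this probe set 22.0% rose by at least as much, and their median change was 0.14. The call ended once retina with RPE replicate 3 was left out (adjusted p = 0.0608) and in the fit without moderation (0.0811, in a range of 0.0106 to 0.0811). The pair of per2 probe sets differed by 0.67 in log2 change. Among 1539 genes with 2 or more probe sets the median gap between the brightest and the next was 0.29, and 16.8% had a gap of at least that size. A rise of per2 was thus called by the dimmer probe set only, while the brighter one was not called in either direction. Whether the changes of the pair differ was not tested.

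The gene per3 encodes a period protein whose RNA cycles in zebrafish. It read 28.9, 36.1 and 33.8 in retina and 42.1, 49.1 and 42.2 with RPE, again without overlap. The rise was 1.35-fold (1.14 to 1.60; log2 change 0.44 ± 0.109, SE; limma adjusted p = 0.0132). Probe sets of its brightness had a median change of 0.15, and 13.0% of them rose by at least as much. The call was lost under cyclic loess (adjusted p = 0.0647), quantile normalization (0.0653), without moderation (0.0836) and without retina with RPE replicate 2 (0.0592), in a range of 0.0065 to 0.0836.

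The cryptochrome gene cry4 rose as well. Cry4 belongs to the cryptochrome family of flavoproteins, and in cell assays the zebrafish protein did not repress Clock and Bmal as its relatives do. It read 85.1, 80.2 and 91.1 in retina and 150.0, 129 and 141 with RPE. The lowest RPE pool was well above the highest retina pool. The change was 1.64-fold (1.42 to 1.89; log2 change 0.71 ± 0.0934, SE; limma adjusted p = 0.000671). Of probe sets of the same brightness 3.8% rose by at least as much. The call held under all 15 alternatives that refit the data, with adjusted p between 0.000469 and 0.0252. In the main fit it also held at the stricter threshold of 0.01.

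Over the whole list of period and cryptochrome genes with the repressor gene ciarta, 4 of 9 measured genes rose and 1 fell by their brightest probe set. That is 44.4% and 11.1%, where 19.4% of all genes by their brightest probe set were called higher and 17.0% lower. Those that rose besides per3 and cry4 were cry1a, a light-induced repressor, at 1.40-fold (101.8 ± 11.6 to 142.4 ± 5.36, SD, n = 3; limma adjusted p = 0.00556) and cry2 at 1.37-fold (195.4 ± 12.3 to 268.3 ± 13.0; 0.00406). A second cry2 probe set, nearly as bright, changed by -0.12 and was not called. The gene cry1b was 1.27-fold lower, from 23.3 ± 0.936 to 18.3 ± 0.694 (limma adjusted p = 0.0106). It lost the call when arrays were centred on ribosomal protein genes (adjusted p = 0.0517). The genes ciarta, cry3a and cry3b were not called, with log2 changes of 0.25, 0.18 and 0.14.

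Of the receptors and repressors that loop back on the clock, the Rev-erb gene nr1d2a was dim and nearly flat. Rev-erb proteins repress Bmal genes. It read 16.8, 17.3 and 17.1 in retina and 18.2, 17.9 and 18.4 with RPE. These groups did not overlap, but the log2 change was 0.09 ± 0.0781 (SE; limma adjusted p = 0.382), below the median of 0.12 among probe sets as dim. After cyclic loess or quantile normalization it was -0.01. In the fit without moderation, where its own small spread within both groups alone sets the error, nr1d2a was called (adjusted p = 0.0364). None of the 4 measured Rev-erb and Ror genes was called (0 of 4 in either direction). Over all genes by their brightest probe set 19.4% were called higher and 17.0% lower. The other members nr1d2b, rorcb and rorab had log2 changes of 0.07, 0.05 and -0.02 by their brightest probe sets.

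The repressor gene bhlhe40 encodes a bHLH-Orange protein (Dec1 in mammals) that competes at E-boxes. It read 142, 178 and 158 in retina and 178, 201 and 191 with RPE, and the lowest RPE pool and the highest retina pool were almost level. The log2 change of 0.26 ± 0.103 (SE; 95% interval 0.03 to 0.49) was not called (limma adjusted p = 0.0771). It was called in 3 alternatives, among them without retina replicate 2 (adjusted p = 0.0292) and under quantile normalization (0.042), in a range of 0.0292 to 0.224. Its paralogue bhlhe41, the other gene of that list, rose 1.66-fold, from 24.2 ± 2.18 to 40.2 ± 3.11 (SD, n = 3; limma adjusted p = 0.000826). Whether the changes of bhlhe40 and bhlhe41 differ was not tested.

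The gene tefa encodes a PAR bZIP factor that binds D-box elements, through which light acts on zebrafish clock genes. Its brighter probe set read 306, 320 and 255 in retina and 254, 362 and 288 with RPE, with full overlap. The log2 change was 0.03 ± 0.139 (SE; 95% interval -0.28 to 0.34; limma adjusted p = 0.888). Without retina replicate 3 it was -0.07, and without retina with RPE replicate 2 it was -0.11. Its dimmer probe set read 32.5, 27.4 and 31.1 in retina and 31.2, 36.8 and 42.0 with RPE. These also overlapped, and the log2 change of 0.27 ± 0.120 was not called (limma adjusted p = 0.113), except without retina with RPE replicate 1 (0.0456). Of the 4 measured PAR bZIP and Nfil3 genes 1 rose and 0 fell. This was the paralogue tefb at 1.19-fold (limma adjusted p = 0.0468), whose call was lost in 11 of 14 refits, with log2 changes of 0.10 to 0.29. Those included leaving out retina replicate 1 (adjusted p = 0.0921) or 3 (0.116) and retina with RPE replicate 1 (0.109), 2 (0.0697) or 3 (0.139). The genes nfil3-6 and nfil3-5 had log2 changes of 0.34 and 0.00.

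The gene cry5 encodes a 6-4 photolyase, an enzyme that uses light to repair ultraviolet damage in DNA, and light induces it in zebrafish cells. Its brighter probe set read 50.6, 61.4 and 61.0 in retina and 69.0, 73.2 and 73.5 with RPE. The groups did not overlap, and the rise was 1.25-fold (1.07 to 1.46; log2 change 0.32 ± 0.0988, SE; limma adjusted p = 0.0299). That call was weakly held: it was lost without retina replicate 1 (adjusted p = 0.0865) and without retina with RPE replicate 1 (0.0554), 2 (0.0897) or 3 (0.092). It was also lost under cyclic loess (0.121), under quantile normalization (0.112) and without moderation (0.0944), in a range of 0.0203 to 0.121. Among 500 probe sets of the brightness of this probe set 26.2% rose by at least as much, and their median change was 0.13. The dimmer probe set read 32.1, 36.6 and 36.9 in retina and 35.6, 41.2 and 43.1 with RPE. These groups overlapped, and the log2 change of 0.18 ± 0.103 (limma adjusted p = 0.199) was near the median of 0.16 among probe sets of its brightness.

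Among other photolyase and DNA repair genes that light or ultraviolet damage calls on, the directions were mixed. Counting cry5, 3 of 7 measured genes rose and 1 fell. That is 42.9% and 14.3%, beside 19.4% called higher and 17.0% lower over all genes by their brightest probe set. The ultraviolet damage sensor gene ddb2 rose 1.85-fold, from 33.1 ± 1.61 to 61.4 ± 2.88 (SD, n = 3; limma adjusted p = 0.000167). The gene polh, for a polymerase that copies past damaged bases, rose 1.47-fold, from 36.0 ± 2.90 to 52.9 ± 6.35 (limma adjusted p = 0.00469). In contrast cpdp, the photolyase gene for pyrimidine dimers, was 1.70-fold lower, from 115.8 ± 14.3 to 67.6 ± 0.625 (limma adjusted p = 0.000727). The genes cry-dash, neil1 and xpc were not called by their brightest probe sets, at log2 changes of 0.02, -0.07 and -0.13, while a dimmer cry-dash probe set rose by 0.38.

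Of the kinase and ubiquitin ligase genes that set the life of period and cryptochrome proteins, 1 of 8 rose and 1 fell. That is 12.5% each way, where 19.4% of all genes by their brightest probe set were called higher and 17.0% lower. The kinase gene gsk3ba rose 1.36-fold (limma adjusted p = 0.00461), and csnk1e, a casein kinase gene whose protein phosphorylates period proteins, was 1.36-fold lower (0.0099). The other members, csnk1db, fbxl3a, fbxw11a, csnk1da, fbxl3b and fbxw11b, lay between -0.34 and 0.21 on the log2 scale. Of 10 nonvisual opsin and melatonin genes 2 rose and 0 fell, and the 20.0% that rose is near the 19.4% of all genes. The VA opsin gene valopa rose 1.50-fold, from 51.6 ± 3.87 to 78.0 ± 13.8 (SD, n = 3; limma adjusted p = 0.00803), and the melatonin receptor gene mtnr1ba 1.53-fold (limma adjusted p = 0.00165). A second mtnr1ba probe set changed by -0.17 and was not called. The melatonin synthesis genes aanat2 and aanat1 were not called, with log2 changes of -0.15 and -0.03, nor was the melanopsin gene opn4.1 at -0.04.

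Over these 8 lists, 50 genes were measured, of which 15 rose and 3 fell. Of the 42 that are not among the 8 genes described first, 11 rose and 3 fell, with a median log2 change of 0.16 against 0.037 over all genes by their brightest probe set. The shares of all genes called were 19.4% higher and 17.0% lower, beside 26.2% and 7.14% of these 42. Without moderation of variances, calls ended for npas2 (adjusted p = 0.0684), clockb (0.104), cry1a (0.0528), polh (0.0581), valopa (0.086), csnk1e (0.0692) and tefb (0.0623). The plot of the lists shows the Rev-erb and Ror genes close to 0, and the activator genes all above it.

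**Figure D3:**
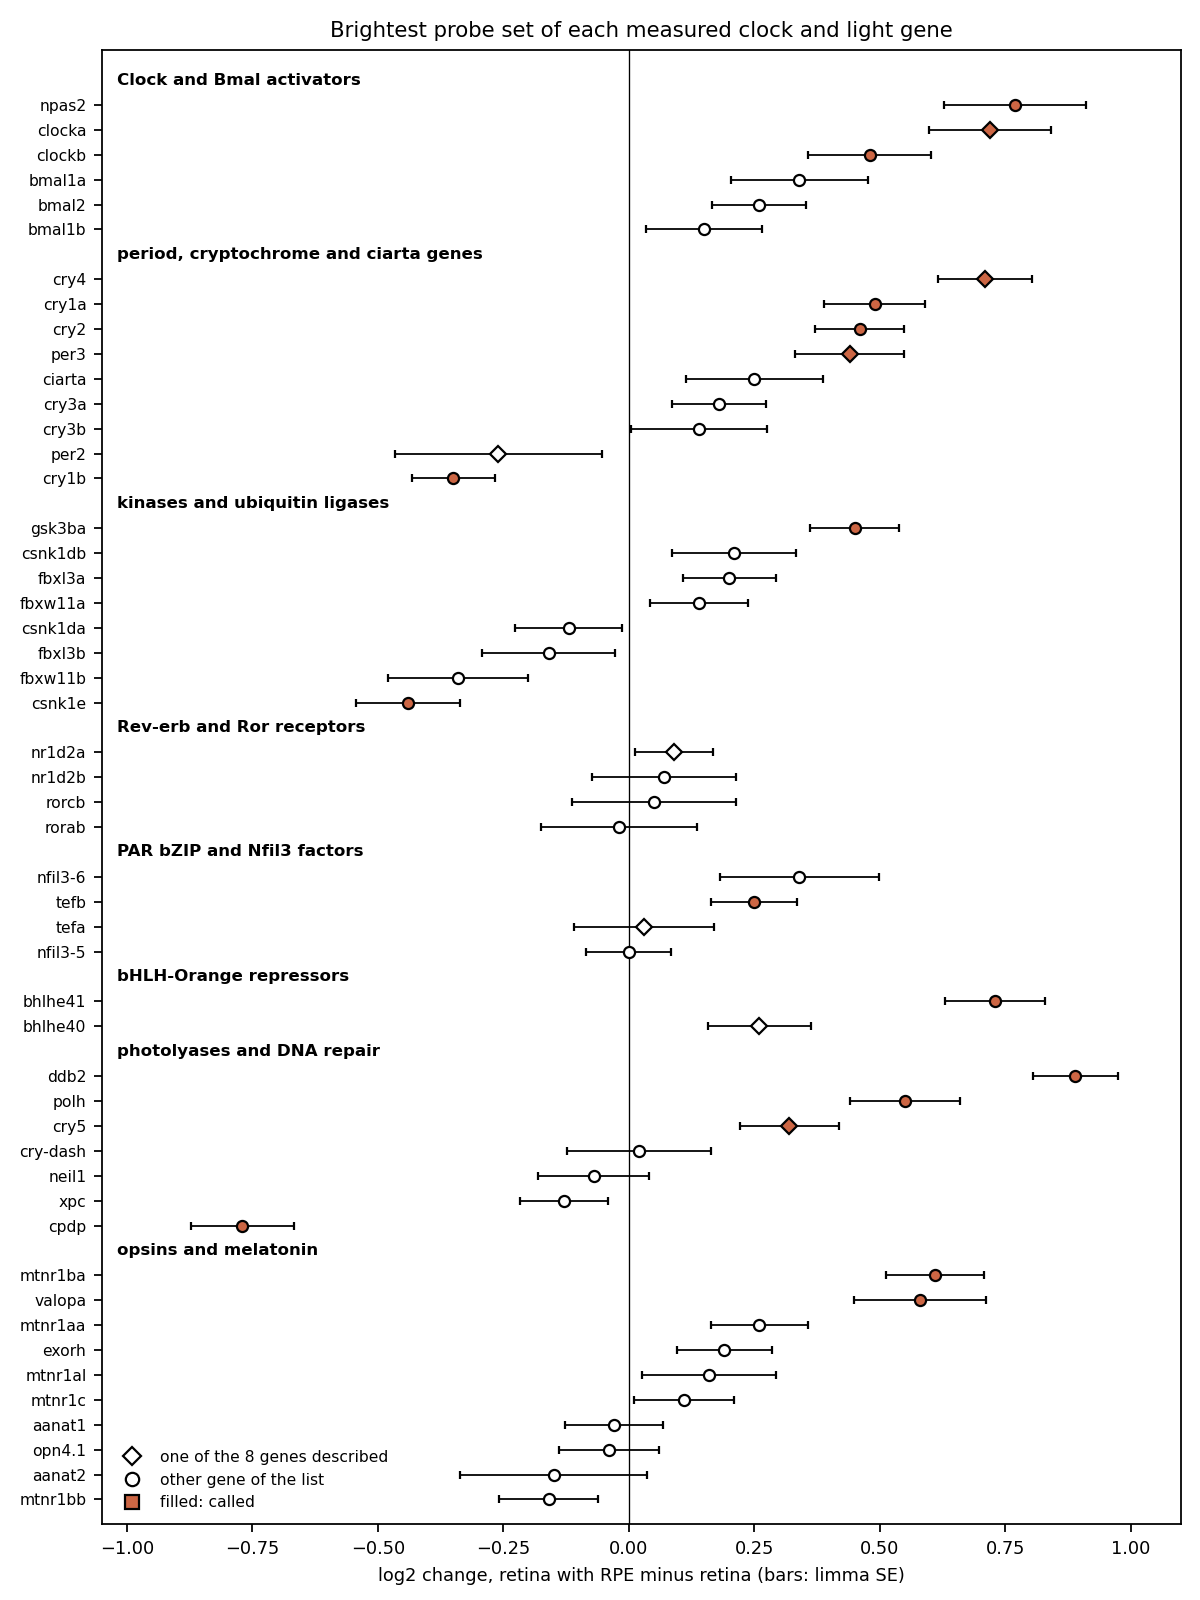
Log2 change (horizontal axis, retina with RPE minus retina, bars for limma SE) of the brightest probe set of the 50 measured genes, grouped by list and filled where called. Diamonds mark the genes described first; ddb2 is highest at 0.89 and cpdp lowest at -0.77, and the activator genes all lie above 0.

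The letter in the probe set identifier went with the direction. Over the array, probe sets marked S were called higher in 22.8% and lower in 11.6%, and those marked A higher in 16.1% and lower in 18.6%. Of the 11 clock and light probe sets, 8 are marked S, of which 5 rose, and 3 are marked A, of which 0 were called. Those 3 read per2, tefa and bhlhe40, and in per2 and tefa the log2 change was higher by the S probe set than by the A one. The part of the letter in these differences was not tested.

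Within the retina group, replicate 2 was often the highest and replicate 1 often the lowest across the clock and light probe sets. Some genes outside the clock and light lists also differed between these pools. Retina replicate 2 gave the highest of the 3 retina values in 8 of the 11 probe sets, against 34.8% of all tested probe sets. Retina replicate 1 gave the lowest in 8 of the 11, against 37.8%. With RPE attached, replicate 3 was highest in 7 and replicate 1 lowest in 8, against 37.1% and 34.7%. The probe sets share these arrays and are not independent. The brighter per2 probe set had the widest spread of the 11 in retina, with a high pool 2.00 times the low one and a log2 SD of 0.52, which 0.593% of all probe sets reached. With RPE attached the same probe set spanned 1.02 times, a log2 SD of 0.0126, and 98.7% of all probe sets had at least that spread. The difference in spread between the groups was not tested.

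**Figure D4:**
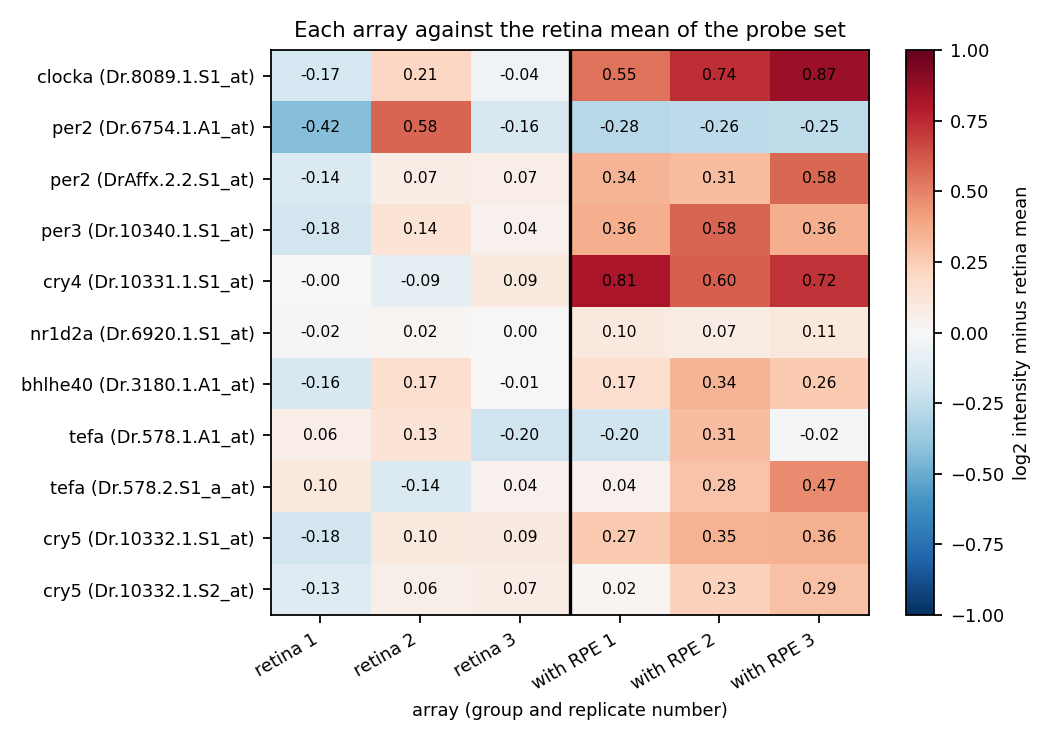
Log2 intensity of each probe set on each array minus its retina mean (colour and printed value; columns are arrays, rows probe sets). The RPE columns are positive throughout in all rows but those of the brighter per2 and the brighter tefa probe sets. The retina 2 value of 0.58 in the brighter per2 row exceeds all others of the retina columns.

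Genes most like 3 of the members were named by the distance between log2 values centred over the 6 arrays, taking the members with the largest changes by brightest probe set. For clocka these were npas2 (distance 0.145), foxd3 (0.148) and cbx6b (0.178). Thus the nearest of all 8793 named genes to clocka was its own paralogue npas2. For cry4 they were mak (0.117), dlg1a (0.119) and asmtl (0.129), and for per3 ibtk (0.0902), cyp2aa1 (0.0916) and ncam1a (0.0948). All of these rose between 0.37 and 0.77 on the log2 scale. The measure is set mostly by the difference between the groups, and all genes share the same arrays.

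**Figure D5:**
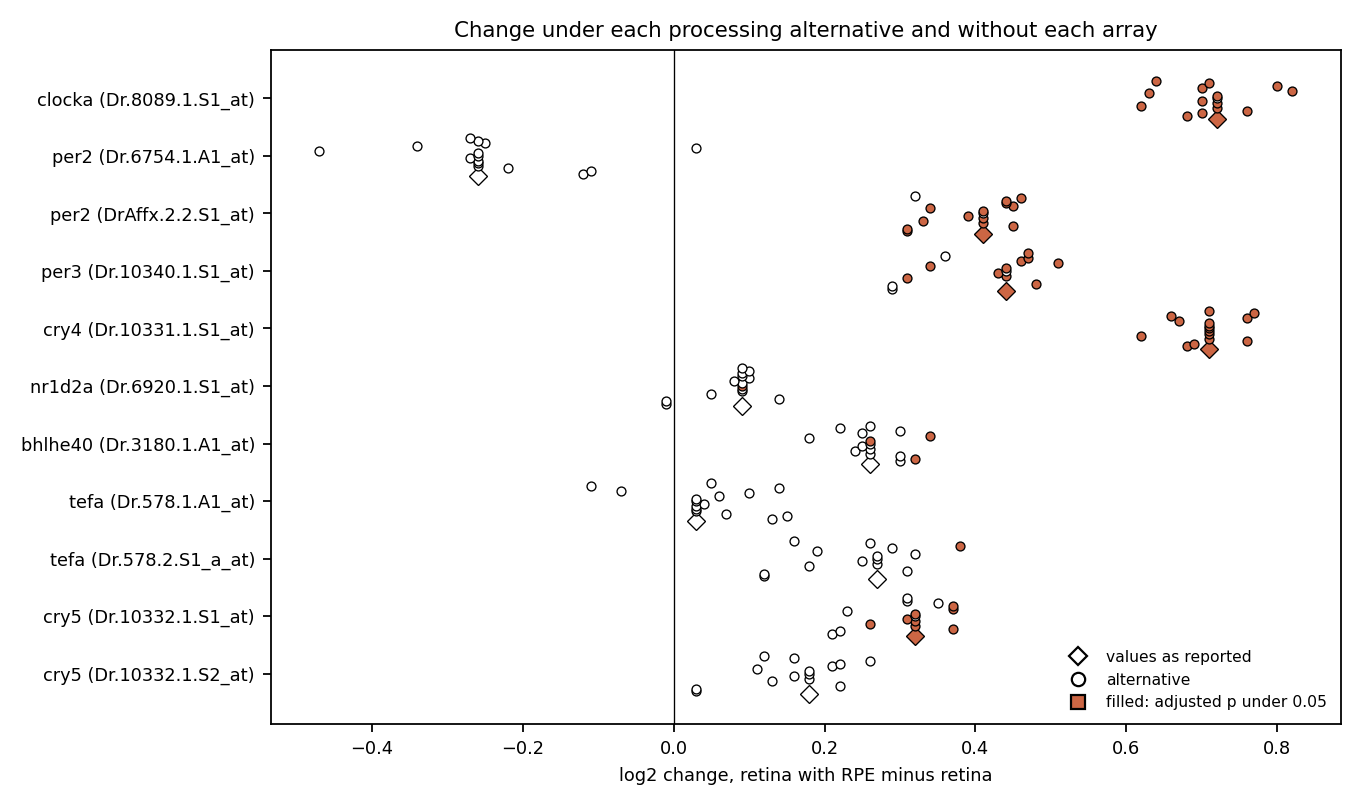
Log2 change (horizontal axis) of each probe set as reported (diamonds) and under each alternative or without each array (circles), filled where the adjusted p was under 0.05. The clocka and cry4 symbols stay between 0.62 and 0.82, and those of cry4 are all filled. Filled in part are clocka, per3, nr1d2a, bhlhe40, the dimmer per2, the dimmer tefa and the brighter cry5 probe set.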

How the data were processed

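Transcript levels were measured on 6 Affymetrix arrays, 3 per group. The authors deposited 1 linear intensity for each probe set on each array, made with RMA, affy and R 2.2.0 per the submitters' processing notes, with no order of steps. RMA corrects background, normalizes arrays and summarizes probes. Detection calls were not used here, so the dimmest values have no known floor. The number of arrays limits the precision.

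Of 15617 probe sets, 115 controls were left out. Names came from the platform annotation, with 10795 probe sets listed with 1 gene, 135 with several and 4572 unlisted. A current gene was matched for 10711, which changed 1 symbol. Intensities were log2 transformed and tested by a 2-sided moderated fit (lmFit, eBayes; limma 3.58.1, R 4.3.3), adjusted after Benjamini-Hochberg across the 15502 probe sets, and the fit was tested on simulated data. Errors are limma's SE or the SD over 3 pools. Folds are geometric. With 3 arrays a group the smallest exact permutation p is 0.1. Lists read each gene by its brightest probe set.

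The members and lists were chosen with earlier results of these data known. Named were all members, up to 4 called genes per list and direction with the remaining genes of the lists, label checks, and 3 nearest genes for each of 3 members. Replicate numbers follow the descriptions and were not taken as pairs. Alternatives were other normalizations, centring, a filter, a pseudocount, other variance models, a replicate block and leaving out each array. Figures were drawn with matplotlib 3.10.9.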

Additional observations from a re-analysis of the deposited data

How the results depend on the processing

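Of 172 settings over the 11 probe sets, 145 left direction and call as reported, 17 ended a call, 5 made one and 5 turned a sign that was not called. The turned signs were the brighter per2 probe set without retina replicate 2 (0.03, in a range of -0.47 to 0.03 without each array), nr1d2a under cyclic loess and quantile normalization (-0.01 in both), and the brighter tefa probe set without retina replicate 3 (-0.07) or retina with RPE replicate 2 (-0.11, in a range of -0.11 to 0.14). Member probe sets called higher numbered 5, but 3 under cyclic loess, 2 without moderation and 2 at an adjusted p under 0.01. Without each array they numbered 3 to 6, and the count called lower was 0 in every setting. The clock and light lists had 15 genes called higher, but 7 without moderation and 7 after the filter on a mean log2 value of 6. That filter keeps 7 of the 11 member probe sets and 30 of the 50 measured genes of these lists. The count after the filter therefore covers fewer genes. Without each array 12 to 18 genes of these lists were called higher. Over all tested probe sets 2938 were called higher and 2417 lower, against 1266 and 1065 without moderation, and 1179 higher after the filter. Without each array 1805 to 2725 were called higher. The causes were not tested. Another scaling moved the split of calls: cyclic loess gave 2175 higher and 2327 lower, quantile normalization 2266 and 2276, and centring on ribosomal protein genes 3000 and 1703. The replicate number as a block gave 6 member probe sets called higher, with bhlhe40 added (adjusted p = 0.0448), and ended the call of tefb (0.0628). Same-numbered arrays correlated in their deviations from group means at 0.175, 0.079 and 0.13, not all over 0.1, so they were not taken as pairs. Each array correlated best with its own number in the other group, a hint from the data and not from the design. These numbers are those of the descriptions, and the titles give the same replicate numbers. Only the codes in brackets at the end of the titles number the RPE arrays 1, 3 and 4. By these codes, retina replicate 3 would go with retina with RPE replicate 2, at a correlation of -0.074. Of 202 settings over the 14 other named genes, 183 left the call as reported. The promoter motifs planned were not run.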

Other observations

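The array with the highest brighter per2 value, retina replicate 2, also stood apart in genes that were singled out after their values were seen. The activator gene bmal1a read 129.9 there, against 179.9 and 178.3 in the other retina pools, and 212.9, 219.4 and 179.7 with RPE. The melatonin synthesis gene aanat2 read 242 there, against 422 and 407, and 290 to 339 with RPE. The Rev-erb gene nr1d2b was high in that pool by its brighter probe set, at 763 against 540 and 512, and 580 to 671 with RPE. By its dimmer probe set the same pool was lowest, at 66.6 against 73.5 and 69.6, so that direction depends on the probe set. Genes outside the clock and light lists were apart in that pool too, so the trait was not particular to clock genes. The retinal neuron gene vsx1 read 3389.3 there, against 5382.5 and 4660.5 in the other retina pools. The photoreceptor gene pde6ha read 273 there by its brighter probe set, against 405 and 438. No label gives the clock time of each dissection, and no cause was tested.

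Immediate early and stress genes, which dissection and light can both raise, did not move one way. Of 11 measured, 3 rose and 5 fell, with summed intensities of 3256 to 3744 in retina and 2722 to 2871 with RPE. That is 27.3% higher and 45.5% lower, where 19.4% of all genes by their brightest probe set were called higher and 17.0% lower. The median log2 change of this list was -0.34, in a range of -1.91 (fosab) to 1.22 (hsp70.3). The value of fosab is that of its brightest probe set. Its dimmer probe sets changed by 0.39, -0.97 and 0.36 (limma adjusted p = 0.0439, 0.00272 and 0.0319), so its direction depends on the probe set. Of the melatonin receptors, mtnr1bb changed by -0.16 by its brighter probe set, which was not called (limma adjusted p = 0.234). By the dimmer one it rose by 0.67 (limma adjusted p = 0.00135), so its call depends on the probe set.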
